A study of Schizosaccharomyces pombe with 9 samples.

Results

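The switch from vegetative growth to mating and meiosis in fission yeast was followed through 6 genes of its core circuit, taken by their gene identifiers from the 5323 features of the table: ste11 (SPBC32C12.02), mei2 (SPAC27D7.03c), mei3 (SPBC119.04), mei4 (SPBC32H8.11), pat1 (SPBC19C2.05) and mmi1 (SPCC736.12c). The messenger RNA of 3 strains of Schizosaccharomyces pombe was sequenced after 2 h in each of 3 media, so that every strain and medium is represented by a single library, 9 in all. The first strain is labelled tup11/12/php5-d, without the corepressors Tup11 and Tup12 and without Php5, which belongs to the CCAAT-binding factor. The second is labelled tup11/12-d, without Tup11 and Tup12, and the third is wild type (WT). The disruptions of tup11 and tup12 carry the ura4 marker, and that of php5 carries a kanamycin resistance cassette. The nitrogen starved cells were in the nitrogen starvation minimal medium of the study, with 1% glucose and supplemented with required amino acids. Which amino acids each strain received is not stated. The glucose starved cells were in yeast extract medium with 0.1% glucose and 3% glycerol, and the glucose rich cells in yeast extract medium with 6% glucose. The nitrogen starved medium therefore also held less glucose than the glucose rich one, added amino acids and no yeast extract, and these differences cannot be told apart. The strains of the study are haploid, and the sources do not name the exact strain or mating type behind each library. The study asked how the corepressors and Php5 keep a stress response specific to its stress, with the glucose-repressed gene fbp1 as its model.

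Ste11 is a transcription factor with an HMG box that switches on mating and early meiotic genes when nutrients run out, and it activates its own gene and mei2. Mei2 is an RNA-binding protein that starts meiosis, and the kinase Pat1 restrains both Mei2 and Ste11 during growth. Mei3, made in diploid cells, inhibits Pat1. Mei4 is a forkhead transcription factor of the middle meiotic genes, and Mmi1 is a YTH-domain protein that sends meiotic RNAs carrying a DSR element (determinant of selective removal) to destruction during growth.

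The libraries held between 36652045 and 54303622 reads on the listed features. Levels are TPM, reads scaled by feature length and library total, and each value came out as a whole number of reads, so that counting error could be computed. No group has a replicate, so 1 group was not tested against another. The 95% intervals below are exact intervals of counting error alone and leave out the spread between cultures. Of the genes named in the labels, tup11 had at most 0.418 TPM in the 6 mutant libraries, against 41.9 to 67.4 TPM in WT. Reads on tup12 were lower but far from absent in the mutants, at 55.7, 54.5 and 84.8 TPM in the libraries labelled tup11/12/php5-d (nitrogen starved, glucose starved, glucose rich) and 72.7, 117 and 89.2 TPM in those labelled tup11/12-d, against 157, 151 and 107 TPM in WT. The reads on php5 were 30.2, 21.2 and 8.92 TPM in the libraries labelled tup11/12/php5-d, against 124, 74.8 and 61.6 TPM in those labelled tup11/12-d and 126, 76.96 and 61.6 TPM in WT. The marker gene ura4 had 0 reads in WT and 36.1 to 179 TPM in the mutant libraries. For tup12 the labels therefore could not be checked from the reads, and for php5 the reads were lower but did not disappear, and every difference given below for these strains is one between libraries so labelled. The glucose starved library labelled tup11/12/php5-d stood apart from the rest. Its median feature was at 27.0 TPM, against 38.1 to 54.6 TPM in the other libraries, and its 10 most abundant features took 18.2% of the total. Reads on markers of both mating types were present in every library: the markers of P cells (map2 and map3) summed to 18.0 to 179 TPM and those of M cells (mfm1, mfm2, mfm3, mam1, mam2 and sxa2) to 32.2 to 144 TPM, and of these markers only mfm1 was at 0 reads, in the glucose starved library labelled tup11/12/php5-d alone. Their part in the results was not tested.

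The promoters of ste11 and mei2 are shown because mei2 and ste11 were past 2-fold in more of the 12 comparisons given further on (8 and 6) than any other member. The sequences are the 250 bases before the annotated transcript start in the RefSeq genome of the ASM294v3 assembly, written on the strand of the gene. The ste11 window is chrII:3983126-3983375 on the plus strand and the mei2 window is chrI:4515026-4515275 on the minus strand. Capitals mark the TR box TTCTTTGTT, the sequence that Ste11 binds, and the stress response element (STRE) CCCCTC, the kind of site that the zinc-finger activator Rst2 binds.
ste11 upstream: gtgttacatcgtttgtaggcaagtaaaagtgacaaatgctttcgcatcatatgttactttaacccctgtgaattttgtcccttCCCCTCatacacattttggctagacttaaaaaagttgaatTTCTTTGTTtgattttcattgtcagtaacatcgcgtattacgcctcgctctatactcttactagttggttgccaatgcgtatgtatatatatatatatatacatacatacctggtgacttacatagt
mei2 upstream: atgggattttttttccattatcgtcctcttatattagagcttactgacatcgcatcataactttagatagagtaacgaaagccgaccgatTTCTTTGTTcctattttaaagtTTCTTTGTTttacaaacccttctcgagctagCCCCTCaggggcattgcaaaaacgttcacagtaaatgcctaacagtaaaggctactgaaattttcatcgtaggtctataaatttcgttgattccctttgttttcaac
The ste11 promoter held 1 TR box, at -127 from the transcript start, and 1 STRE at -167. The mei2 promoter held 2 TR boxes, at -160 and -138, and 1 STRE at -107. All of these matches were on the strand of the gene and none overlapped another. Both strands of the same window were searched in 5112 genes. A TR box was found in 83 of them (1.62%), the STRE CCCCTC in 87 (1.70%) and both in 6 (0.117%). The other 4 members had neither of these sequences in this window. The CRE sequence TGACGT, bound by Atf1, was in none of the 6 windows and in 5.52% of all. The sequence CCAAT, bound by the factor that holds Php5, was in the windows of ste11, mei4 and pat1 and in 35.3% of all. The core of the FLEX element GTAAANA, bound by Mei4, matched 3 times in the mei4 window, once in each of the mei3, pat1 and mmi1 windows, and in 41.6% of all. A second STRE form, CCCCGC, was in none of the 6 windows and in 0.998% of all. The annotation gives pat1 no leader, so its window lies directly before the coding sequence, unlike those of the other members.

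**Figure D1:**
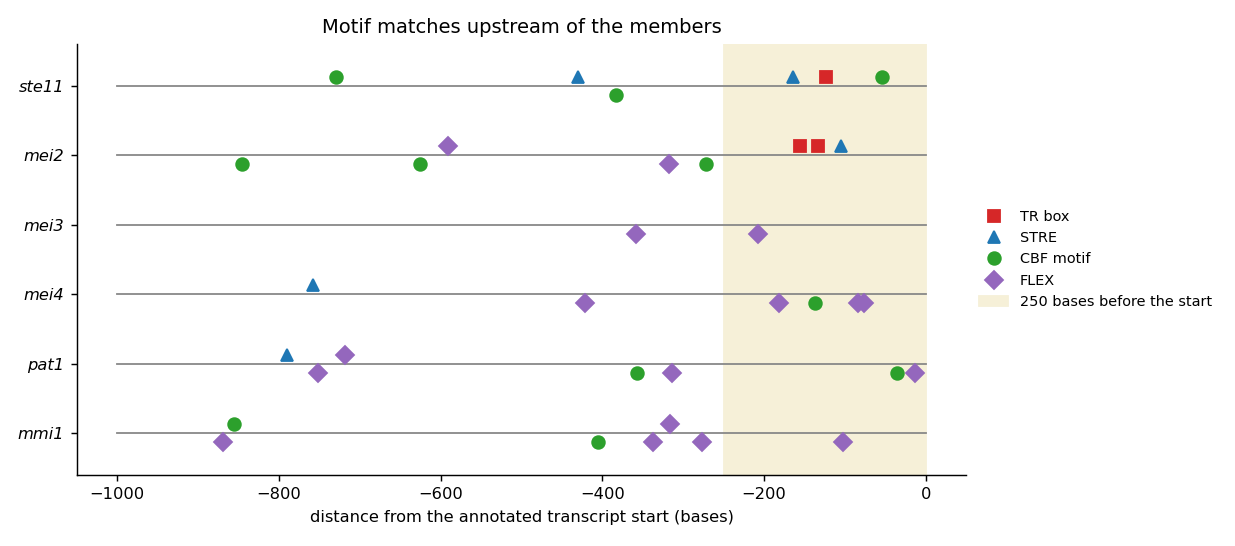
Exact motif matches in the 1000 bases upstream of the annotated transcript start of each member. The horizontal axis is the distance from the start in bases, symbols above a line are on the strand of the gene and those below it on the opposite strand, and the shaded part is the 250-base window. TR boxes (squares) lie only upstream of ste11 and mei2, within 160 bases of the start and beside an STRE (triangles). CBF motif (circles) stands for the CCAAT sequence and FLEX (diamonds) for the Mei4 element. For pat1 the annotated start is also the start of the coding sequence.

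The annotated ste11 transcript runs from 3983376 to 3987400 on the plus strand of chromosome II, with the coding sequence at 3985586 to 3986992 in 1 segment after a leader of 2210 bases. The level of ste11 was 28.5 TPM in nitrogen starved cells, 33.1 in glucose starved cells and 32.6 in glucose rich cells labelled tup11/12/php5-d. In the libraries labelled tup11/12-d the same 3 conditions gave 92.1, 33.8 and 30.6 TPM, and in WT they gave 31.5, 33.0 and 9.86 TPM. One library was thus high, the nitrogen starved one labelled tup11/12-d, one was low, the glucose rich WT one, and 7 lay between 28.5 and 33.8 TPM. The closeness of these 7 holds on the TPM scale. Their median-of-ratios size factors, another way to scale libraries, ran from 0.606 (glucose starved, labelled tup11/12/php5-d) to 1.21 (glucose starved WT). In the order of the levels, each of these 7 had a counting interval that overlapped the next, while the highest and the lowest library were separate from their neighbours.

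The mei2 transcript lies on the minus strand of chromosome I from 4510983 to 4515025, with the coding sequence at 4511040 to 4513292 in 1 segment and a leader of 1733 bases. Its level was 76.8, 38.6 and 45.2 TPM in the nitrogen starved, glucose starved and glucose rich libraries labelled tup11/12/php5-d. The libraries labelled tup11/12-d had 181, 79.6 and 43.4 TPM in the same order of media, and WT had 24.9, 29.7 and 1.64 TPM. The highest mei2 level was 110 times the lowest, the widest range of the 6 genes, and it was set by the same 2 libraries as for ste11. The 3 WT libraries were the lowest of the 9. Only 2 pairs of neighbours in the order had overlapping intervals, the glucose starved library labelled tup11/12-d with the nitrogen starved one labelled tup11/12/php5-d, and the glucose rich libraries of both mutant labels.

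**Figure D2:**
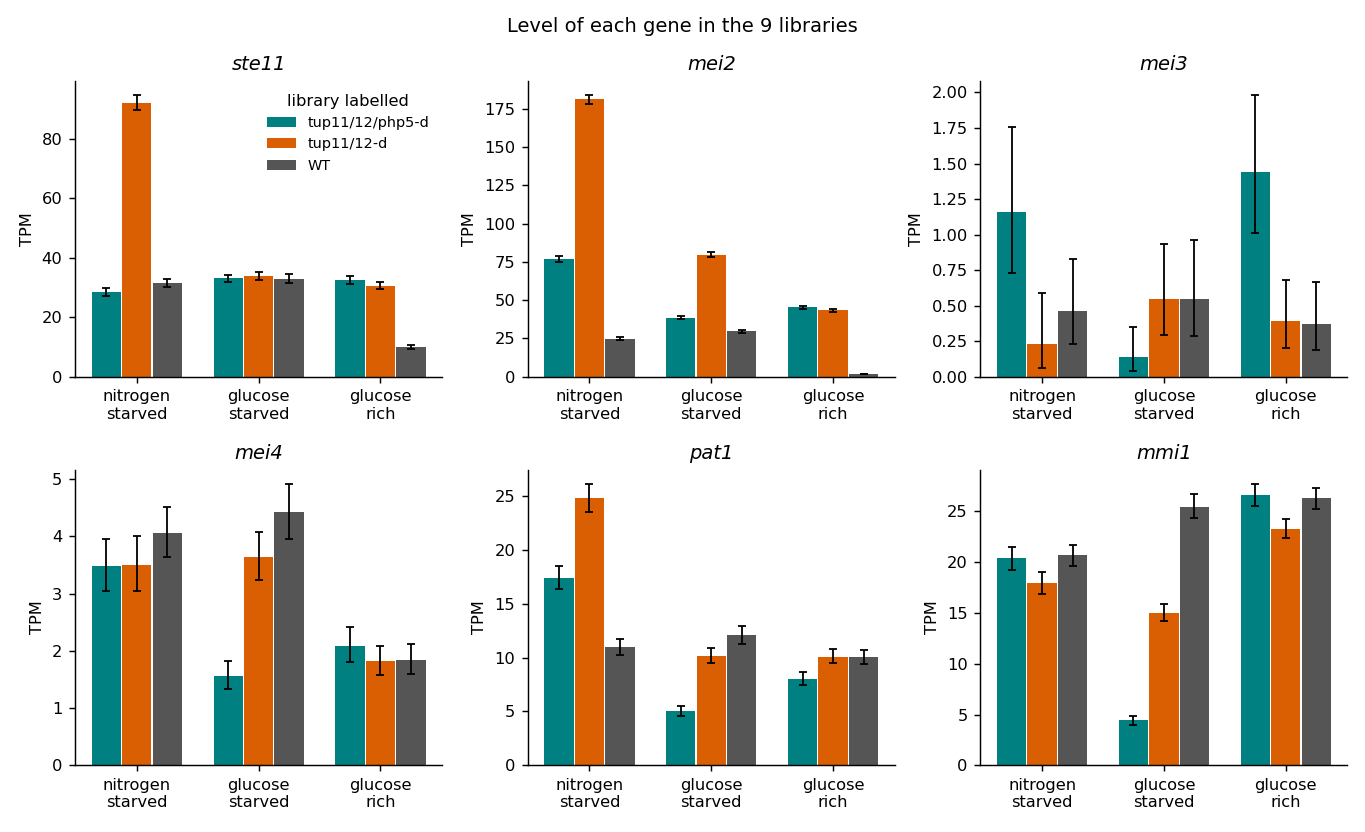
Level of each of the 6 genes in TPM (vertical axes, each with its own scale) by medium (horizontal axes). Bars are single libraries, coloured by label, and whiskers are exact 95% Poisson intervals of the reads. The nitrogen starved library labelled tup11/12-d is highest for ste11 (92.1 TPM), mei2 (181 TPM) and pat1 (24.8 TPM), and the glucose starved library labelled tup11/12/php5-d is lowest for mei3, mei4, pat1 and mmi1.

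The regulators of Mei2 followed other orders. The coding sequence of pat1, the kinase that restrains Mei2, lies on the plus strand of chromosome II from 1682861 to 1684273. It was at 17.4, 5.02 and 8.02 TPM in the nitrogen starved, glucose starved and glucose rich libraries labelled tup11/12/php5-d, at 24.8, 10.2 and 10.1 TPM in those labelled tup11/12-d and at 10.98, 12.1 and 10.03 TPM in WT. The nitrogen starved libraries of both mutant labels were the highest, and the 3 WT libraries lay close together. The inhibitor gene mei3 (chromosome II, plus strand, coding sequence 719806 to 720252) was near the limit of detection, with 4 to 37 reads per library. Its levels were 1.16, 0.136 and 1.44 TPM in the libraries labelled tup11/12/php5-d, 0.2301, 0.547 and 0.389 TPM in those labelled tup11/12-d and 0.461, 0.550 and 0.371 TPM in WT. The nitrogen starved and glucose rich libraries labelled tup11/12/php5-d were the highest, on 22 and 37 reads, and all neighbours in the order had overlapping intervals.

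The mei4 gene lies on the plus strand of chromosome II, with a transcript from 1473068 to 1475285 and the coding sequence at 1473194 to 1474747 in 1 segment. It was at 3.48, 1.57 and 2.09 TPM in the libraries labelled tup11/12/php5-d, 3.51, 3.64 and 1.82 TPM in those labelled tup11/12-d and 4.06, 4.42 and 1.84 TPM in WT, in the order nitrogen starved, glucose starved, glucose rich. The 3 glucose rich libraries and the glucose starved one labelled tup11/12/php5-d made up the low end of this order, and 5 starved libraries the high end, with intervals that did not overlap between the fifth and the sixth place. The mei4 message is a known target of Mmi1, so the core of the DSR element, TNAAAC, was counted in the coding sequence. There were 10 cores in mei4, or 6.44 per 1000 bases, against a median of 2 cores over 5113 coding sequences. As many cores or more were found in 97 of these (1.90%). The stretch below holds 6 of the 10 cores, in capitals, at coding bases 611 to 820 of mei4 (chrII:1473804-1474013, plus strand, ASM294v3).
mei4 coding: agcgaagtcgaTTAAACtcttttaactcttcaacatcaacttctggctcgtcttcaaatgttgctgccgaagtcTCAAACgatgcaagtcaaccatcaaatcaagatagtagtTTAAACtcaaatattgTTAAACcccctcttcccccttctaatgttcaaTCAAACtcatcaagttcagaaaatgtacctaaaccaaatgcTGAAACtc
The coding sequences of ste11, pat1 and mmi1 each held 4 cores, and those of mei2 and mei3 held 1 core each. Other messages that Mmi1 is known to remove held 18 cores (num1, also called mcp5, a dynein anchor), 13 (ssm4, a dynactin subunit), 11 (rec8, the meiotic cohesin), 7 (crs1, a meiotic cyclin), 6 (spo5, an RNA-binding protein) and 5 (mcp7, a recombination factor). A match to the core is a description of the letters and not a measured site.

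**Figure D3:**
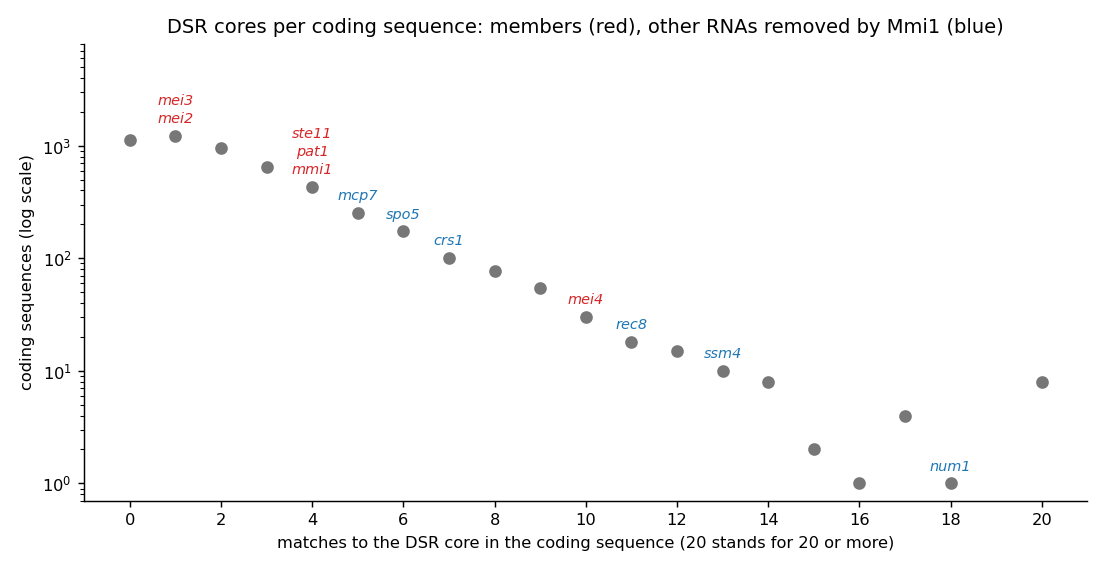
Number of coding sequences (vertical log axis) that hold each number of matches to the DSR core (horizontal axis), with the members named in red and the other messages known to be removed by Mmi1 in blue above their points. With 10 cores, mei4 lies among the 1.90% of coding sequences that hold as many or more, while the other 5 members hold 1 or 4.

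The remover itself, mmi1 (chromosome III, minus strand, transcript 337088 to 340112, coding sequence 337829 to 339567 in 5 segments), was at 20.4, 4.43 and 26.6 TPM in the nitrogen starved, glucose starved and glucose rich libraries labelled tup11/12/php5-d. It was at 17.9, 15.02 and 23.3 TPM in those labelled tup11/12-d and at 20.7, 25.5 and 26.3 TPM in WT. The glucose starved library labelled tup11/12/php5-d was far below the other 8, which lay between 15.02 and 26.6 TPM. By the percentile of the mean level over the 9 libraries among all features, the members were at 55.7 (mei2), 38.8 (ste11), 19.8 (mmi1), 11.2 (pat1), 5.77 (mei4) and 3.93 (mei3). Annotated antisense transcripts overlap 51.5% of the coding bases of ste11, 38.1% of mei2, 82.7% of mei4, 94.7% of mmi1 and 100% of pat1 and mei3. The libraries do not mark strand, so reads of a gene and of its antisense partner cannot be told apart.

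Ratios between 2 libraries were called past 2-fold when over 2 or under 0.5, among features that reached 1 TPM in at least one of the libraries compared. In WT, nitrogen starved cells had 3 members past 2-fold higher than glucose rich cells and none lower, of 5 that passed the filter, beside 19.0% of all features higher and 10.6% lower. The ratio was 15.1 for mei2 (95% interval 13.3 to 17.3), 3.20 for ste11 (2.96 to 3.46) and 2.21 for mei4 (1.84 to 2.65). It was 1.09 for pat1 and 0.787 for mmi1, and mei3 did not pass. Glucose starvation gave the same 3 members in WT, with 18.0 for mei2 (15.8 to 20.6), 3.35 for ste11 (3.10 to 3.62) and 2.40 for mei4 (2.00 to 2.88), beside 19.4% of all features higher and 9.53% lower. The ratio of mei2 had place 84 among the features tested under nitrogen starvation and place 55 under glucose starvation. The mei4 ratios did not stay past 2-fold when the libraries were scaled by median-of-ratios size factors (1.85 and 1.95). The 2 starvation comparisons share the glucose rich library.

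Without starvation, the library labelled tup11/12-d differed from WT in ste11 and mei2. Under glucose rich conditions, mei2 was 26.4-fold higher (23.2 to 30.1, place 24 of all features tested) and ste11 3.10-fold higher (2.88 to 3.34, place 108) in the library labelled tup11/12-d. The ratios of pat1, mei4 and mmi1 lay between 0.887 and 1.01. These 2 of the 5 members that passed were higher and none was lower, beside 3.74% of all features higher and 1.72% lower. In nitrogen starved cells, the same comparison gave 7.28 for mei2 (6.997 to 7.57), 2.92 for ste11 (2.78 to 3.07) and 2.26 for pat1 (2.07 to 2.46), that is 3 of 5 members higher and none lower, beside 5.4% of all features higher and 4.25% lower. In glucose starved cells, mei2 alone was past 2-fold, with a ratio of 2.68 (2.58 to 2.79), while ste11 had a ratio of 1.02 (0.966 to 1.08) and mmi1 one of 0.590. That is 1 of 5 higher and none lower, beside 4.56% of all features higher and 6.46% lower.

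Under starvation, the libraries labelled tup11/12-d were set against their own glucose rich library. In nitrogen starved cells, mei2 had a ratio of 4.17 (4.05 to 4.29), ste11 one of 3.01 (2.88 to 3.15) and pat1 one of 2.45 (2.26 to 2.66), so that 3 of 5 members were higher and none lower, beside 28.8% of all features higher and 9.44% lower. The median log2 ratio of all features was 0.56 in this comparison, and with size factors the ratio of pat1 was 1.70. In glucose starved cells only mei4 was past 2-fold, with a ratio of 2.01 (1.67 to 2.41), or 1.80 with size factors, and none was lower, beside 17.8% of all features higher and 12.4% lower. The ratio of mei2 was 1.83, that of ste11 1.11, that of pat1 1.01 and that of mmi1 0.644.

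The libraries labelled tup11/12/php5-d were compared with those labelled tup11/12-d to see what goes with the added php5 label. In nitrogen starved cells, ste11 had a ratio of 0.310 (0.293 to 0.327) and mei2 one of 0.424 (0.413 to 0.436). The ratio of mei3 was 5.05 (1.71 to 20.1), on 22 and 4 reads, and those of mei4, pat1 and mmi1 were 0.991, 0.702 and 1.14. That is 1 of 6 members higher and 2 lower, beside 3.9% of all features higher and 3.27% lower. Set beside nitrogen starved WT cells, the library labelled tup11/12/php5-d was slightly lower in ste11 (28.5 and 31.5 TPM, with intervals that did not overlap) and higher in mei2 (76.8 and 24.9 TPM). Under glucose rich conditions, mei3 alone was past 2-fold, at 3.70 (1.89 to 7.79) on 37 and 12 reads, beside 4.7% of all features higher and 1.5% lower, and the other 5 ratios lay between 0.795 and 1.15. In this medium ste11 (1.06) and mei2 (1.04) therefore stood at nearly the same level under both mutant labels.

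Glucose starvation gave another picture under the same 2 labels. Here the library labelled tup11/12/php5-d had 4 of the 5 members that passed past 2-fold lower and none higher, with ratios of 0.295 for mmi1 (0.263 to 0.330), 0.430 for mei4, 0.485 for mei2 and 0.493 for pat1. Beside them, 34.4% of all features were lower and 5.52% higher, and the median log2 ratio of all features was -0.64. The ratio of ste11 was 0.980 (0.929 to 1.03), which was above that median, at place 1224 of 5091 features tested. Size factors raise this ratio, since they were 0.606 for the library labelled tup11/12/php5-d and 0.963 for the one labelled tup11/12-d. With size factors, which bring that median to 0.03, the ratios were 0.771 for mei2, 0.683 for mei4 and 0.784 for pat1, and mmi1 was the member that was still lower by more than 2-fold.

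Against its own glucose rich library, the glucose starved library labelled tup11/12/php5-d had 2 of 6 members lower and none higher, beside 38.1% of all features lower and 8.13% higher. These were mmi1, at 0.167 (0.150 to 0.185), and mei3, at 0.0947 (0.0245 to 0.264) on 4 and 37 reads. The ratios of ste11 (1.02), mei2 (0.853), mei4 (0.750) and pat1 (0.625) stayed within 2-fold. The median log2 ratio of all features was -0.70 in this comparison. The log2 ratios of ste11 (0.02), mei2 (-0.23) and mei4 (-0.42) were above it, and that of pat1 (-0.68) was close to it. With size factors, which bring that median to -0.01, 2 members were still lower and none was higher. The nitrogen starved library of this label had pat1 past 2-fold higher, at 2.17 (1.96 to 2.39), and none lower of 6, beside 14.5% of all features higher and 6.52% lower. With size factors this ratio was 1.84. Here ste11 had a ratio of 0.877 (0.825 to 0.932) and mei2 one of 1.70 (1.64 to 1.76).

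**Figure D4:**
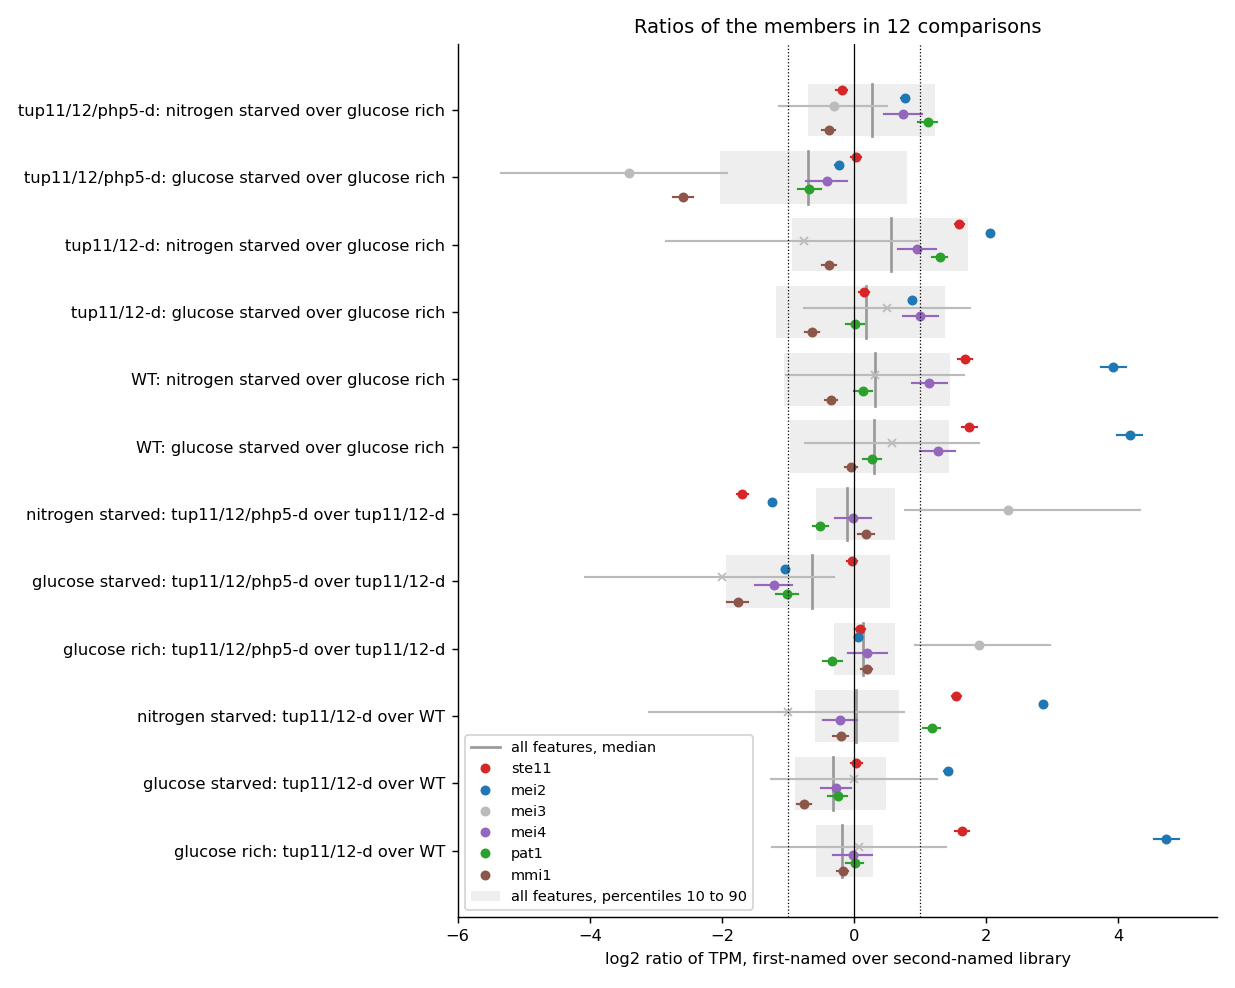
Log2 ratios of the 6 genes (horizontal axis) in the 12 comparisons (rows). Points are the members and lines their 95% counting intervals, a cross marks a gene under 1 TPM in both libraries, grey bars span percentiles 10 to 90 of all features tested and dotted lines mark 2-fold. The ratio of mei2 lies beyond the grey bar in both WT starvation comparisons and in all 3 comparisons of the library labelled tup11/12-d with WT. That of ste11 does so in the same comparisons except the glucose starved one with WT. Both ste11 and mei2 lie below the bar in nitrogen starved cells of the 2 mutant labels.

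The signals that reach ste11 were described through 19 genes of the cAMP, stress kinase and TOR pathways and other known regulators of ste11. In WT, 4 of the 19 were past 2-fold higher in nitrogen starved cells and 6 in glucose starved cells, with none lower, beside 19.0% and 19.4% of all features higher. With size factors 3 and 4 were higher, and 1 was lower in glucose starved cells. The largest ratios were 8.99 for msa1 (an RNA-binding protein that restrains mating) under nitrogen starvation and 4.30 for pka1 (the catalytic subunit of protein kinase A, which represses ste11) under glucose starvation. Of the transcription factor genes, atf1, the partner of Pcr1 downstream of the kinase Sty1, had ratios of 1.93 and 1.73 under nitrogen and glucose starvation, and rst2, an activator of ste11 that protein kinase A holds back, had 1.74 and 2.62. In the libraries labelled tup11/12-d, 10 of the 19 were higher in nitrogen starved cells (5 with size factors) and 6 in glucose starved cells (5 with size factors), with none lower, beside 28.8% and 17.8% of all features higher.

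Against WT, the libraries labelled tup11/12-d had gpa2, the G protein subunit of glucose sensing, at ratios of 4.22, 2.37 and 2.64 in nitrogen starved, glucose starved and glucose rich cells. Under nitrogen starvation rst2 was the other gene of the list past 2-fold (2.79). That is 2, 1 and 1 of the 19 higher in the same order of media, and none lower. Over all features, 5.4%, 4.56% and 3.74% were higher and 4.25%, 6.46% and 1.72% lower. The libraries labelled tup11/12/php5-d had 2 of the 19 lower than those labelled tup11/12-d in nitrogen starved cells, gpa2 (0.448) and msa1 (0.460), and 1 with size factors. Over all features, 3.27% were lower. In glucose starved cells 3 of the 19 were higher (cgs1, the regulatory subunit of protein kinase A, at 3.91, then pcr1 at 2.35 and pka1 at 2.33) and msa1 was lower (0.223). Beside them, 5.52% of all features were higher and 34.4% lower. With size factors 5 of the 19 were higher and 1 was lower. In glucose rich cells none of the 19 was past 2-fold, beside 4.7% of all features higher and 1.5% lower.

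Known targets of Ste11 were described through 15 mating genes. In WT, 7 of the 15 were past 2-fold higher in nitrogen starved cells and 7 in glucose starved cells, with none lower, beside 19.0% and 19.4% of all features higher. Their median log2 ratios were 0.99 and 0.89, against 0.32 and 0.31 over all features. With size factors the counts were 5 and 2. The gene of the P-factor pheromone, map2, had 43.2 and 1.35 TPM in nitrogen and glucose starved WT cells, against 1.52 TPM in glucose rich WT cells. The libraries labelled tup11/12-d had 10 of the 15 higher in nitrogen starved cells (median 1.59, against 0.56 over all features) and 6 in glucose starved cells (median 0.68, against 0.18). Over all features, 28.8% and 17.8% were higher. With size factors the counts of the list were 8 and 3.

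Against WT, the nitrogen starved library labelled tup11/12-d had 7 of the 15 higher and none lower (median 0.96, against 0.03 over all features). The glucose starved one had 6 higher (0.39, against -0.33) and the glucose rich one 5 higher (0.34, against -0.19), and these 3 counts were also found with size factors. Over all features, 5.4%, 4.56% and 3.74% were higher in nitrogen starved, glucose starved and glucose rich cells. The largest ratio of the list in any medium was that of map2 in glucose starved cells, at 89.7 TPM in the library labelled tup11/12-d and 1.35 TPM in WT (66.3). In nitrogen starved cells the largest were rgs1, a regulator of pheromone signalling, at 320 TPM in the nitrogen starved library labelled tup11/12-d and 15.5 TPM in WT (ratio 20.7), and gpa1, the G protein subunit of the pheromone response, at 685 and 102 TPM (6.74). Beside them stood spk1, the kinase of that pathway (5.68), while mfm3, an M-factor gene, had a ratio of 0.624.

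Between the 2 mutant labels, the calls in starved cells were lower ones. In nitrogen starved cells, 6 of the 15 were lower in the library labelled tup11/12/php5-d than in the one labelled tup11/12-d and none was higher (median -0.75, against -0.10 over all features; 5 lower with size factors), with rgs1 at 39.9 and 320 TPM (ratio 0.125), map2 at 0.212, spk1 at 0.245 and gpa1 at 0.359. In glucose starved cells 14 of the 15 were lower (median -1.70, against -0.64), and 8 with size factors, with rep1, a regulator of premeiotic transcription, the exception at 0.832. Over all features, 3.27% were lower in nitrogen starved and 34.4% in glucose starved cells. In glucose rich cells map2 was higher (2.97) and no other gene of the list was past 2-fold, beside 4.7% of all features higher and 1.5% lower. Within the label tup11/12/php5-d, 2 of the 15 were higher in nitrogen starved cells and 11 were lower in glucose starved cells than in glucose rich cells (1 and 7 with size factors). Over all features, 14.5% were higher in the nitrogen starved and 38.1% lower in the glucose starved comparison. The pheromone genes map2, mfm1, mfm2 and mfm3 are also markers of mating type, whose summed levels in these libraries are given above.

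**Figure D5:**
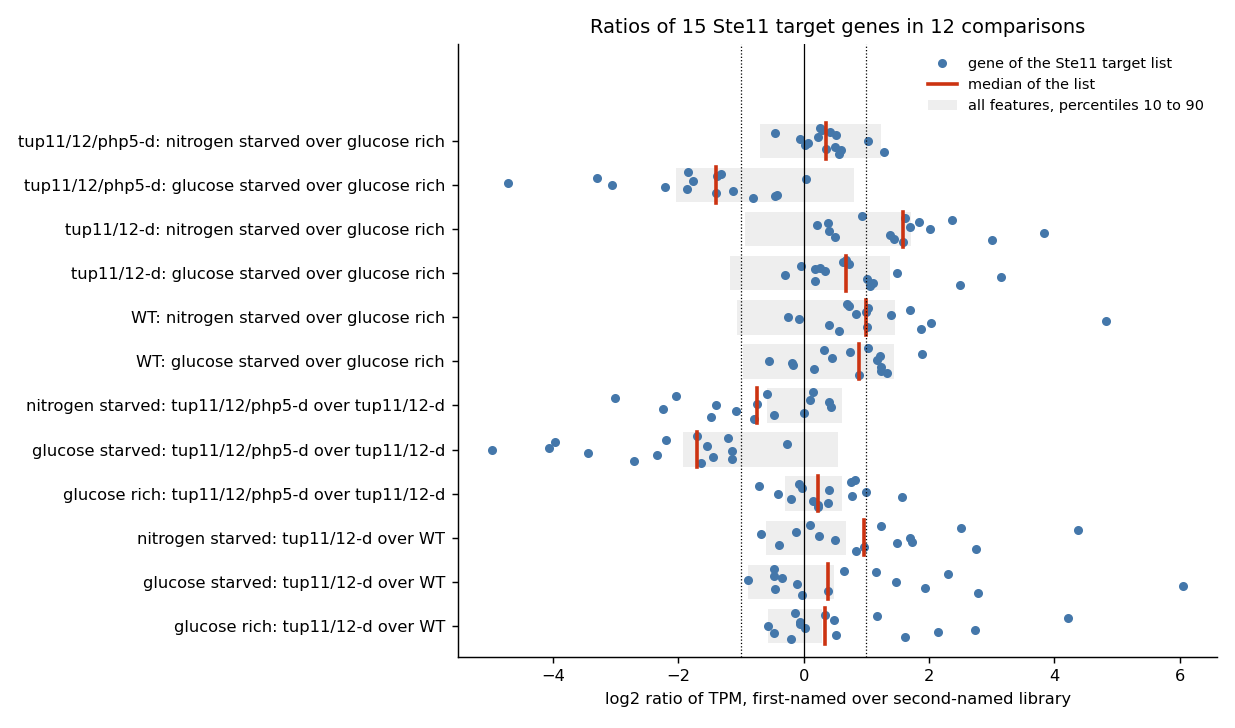
Log2 ratios of 15 known Ste11 target genes (points, horizontal axis) in the 12 comparisons (rows), with the median of the list (red) and percentiles 10 to 90 of all features tested (grey bars); dotted lines mark 2-fold. The list lies to the right in the comparisons of the libraries labelled tup11/12-d with WT, with 7, 6 and 5 genes past 2-fold, and to the left in the nitrogen and glucose starved comparisons of the 2 mutant labels, with 6 and 14 genes. In the same order, 5.4%, 4.56% and 3.74% of all features were higher, and 3.27% and 34.4% lower.

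Genes that act later in the pathway were described through their own lists. Of 6 messages removed by Mmi1, 3 were past 2-fold higher in nitrogen starved and 3 in glucose starved WT cells than in glucose rich WT cells (none and 2 with size factors), beside 19.0% and 19.4% of all features higher, among them mcp7 at 34.9 TPM in glucose starved and 8.995 TPM in glucose rich cells. Against WT, 5 of the 6 were lower in the glucose starved library labelled tup11/12-d (2 with size factors) and 2 in the glucose rich one, rec8 (0.430) and num1 (0.369). Over all features, 6.46% and 1.72% were lower. Under nitrogen starvation none of the 6 was past 2-fold between the label tup11/12-d and WT, beside 5.4% of all features higher and 4.25% lower. Between the 2 mutant labels spo5 was lower in glucose starved cells (0.405, a call lost with size factors), where 34.4% of all features were lower. No other of the 6 was past 2-fold in any medium. Of 9 partners of Mmi1 in RNA elimination, among them erh1, red1 and the exosome nuclease rrp6, none was past 2-fold in WT or in the libraries labelled tup11/12-d under either starvation, although 1 and 2 were lower in nitrogen and glucose starved WT cells with size factors. Over all features, 19.0% and 19.4% were higher and 10.6% and 9.53% lower in nitrogen and glucose starved WT cells. Under the label tup11/12-d, 28.8% and 17.8% were higher and 9.44% and 12.4% lower. In the glucose starved library labelled tup11/12/php5-d 5 of the 9 were lower than in its glucose rich library, beside 38.1% of all features lower. With size factors none of the 9 was lower.

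Of 11 Mei4 targets, 3 were past 2-fold higher in nitrogen starved and 1 in glucose starved WT cells, beside 19.0% and 19.4% of all features higher. Between the 2 mutant labels, 8 of the 11 were lower and 1 was higher in the glucose starved library labelled tup11/12/php5-d, beside 34.4% of all features lower and 5.52% higher (4 lower and 2 higher with size factors). In the other 2 media none was lower and 1 was higher, beside 3.9% (nitrogen starved) and 4.7% (glucose rich) of all features higher. The gene that was higher in all 3 media was the septin gene spn5, at 113, 184 and 94.0 TPM in nitrogen starved, glucose starved and glucose rich cells labelled tup11/12/php5-d, against 27.6, 32.3 and 12.4 TPM in those labelled tup11/12-d. In WT it was at 19.6, 21.6 and 11.6 TPM. Of 11 genes of meiotic recombination, 8 were higher and 1 was lower in nitrogen starved WT cells, and 4 were higher and 1 was lower in glucose starved ones. Beside them, 19.0% and 19.4% of all features were higher, and with size factors 2 and 3 of the 11 were higher. Between the 2 mutant labels, 8 of the 11 were lower and none was higher in the glucose starved library labelled tup11/12/php5-d (7 lower and 1 higher with size factors), beside 34.4% and 5.52% of all features. The gene that was lower in starved WT cells, rec15, a factor for meiotic DNA breaks, was also lower than in glucose rich cells in every starved library of both mutant labels, with ratios from 0.0304 to 0.219, while rec24 was higher in all 6 starved libraries, with ratios from 2.02 to 3.04.

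Genes that share the TR box were then set beside ste11 and mei2. Besides these, 81 genes held a TR box in the 250-base window. They include rgs1, spk1, mfm1, mfm3, ste6 and rep1, which are also in the list of Ste11 targets above. In the nitrogen starved library labelled tup11/12-d, 14 of the 78 that passed were past 2-fold higher than in WT (17.9%) and 3 lower, beside 5.4% and 4.25% of all features. In glucose rich cells 8 of 77 were higher (10.4%) and 2 lower, beside 3.74% and 1.72%. In glucose starved cells 12 of 77 were higher (15.6%) and 2 lower (2.60%), beside 4.56% and 6.46%. In the nitrogen starved library labelled tup11/12/php5-d, 7 of 77 were lower than in the one labelled tup11/12-d (9.09%) and 4 higher (5.19%), beside 3.27% and 3.9%. Between the glucose starved libraries of these labels 35 of 76 were lower (46.1%) and 3 higher (3.95%), beside 34.4% and 5.52%. For the 85 other genes with the STRE CCCCTC, 22 were higher and 2 lower in the nitrogen starved library labelled tup11/12-d than in WT (25.9% and 2.35%). In the glucose starved one 10 were higher and 8 lower (11.8% and 9.41%, beside 4.56% and 6.46% of all features), and in the glucose rich one 12 were higher and 1 lower (14.1% and 1.18%). The nitrogen starved library labelled tup11/12/php5-d had 11 of the 85 lower and 4 higher than the one labelled tup11/12-d (12.9% and 4.71%), and in the glucose starved ones 27 were lower and 13 higher (31.8% and 15.3%, beside 34.4% and 5.52%).

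The 4 further genes that held both sequences were ste7, an arrestin-related mating gene, itr2, a myo-inositol transporter gene, frp1, a ferric reductase gene, and snp27. Under nitrogen starvation all 4 were higher in the library labelled tup11/12-d than in WT, with ratios of 3.30 for ste7, 2.71 for itr2, 6.59 for frp1 and 3.70 for snp27. In glucose rich cells the ratios were 4.19, 1.72, 13.5 and 0.706 in the same order. In glucose starved cells they were 1.19, 1.04, 14.96 and 2.098. Within WT, nitrogen starved over glucose rich cells gave 7.96, 1.904, 1.77 and 0.34. Glucose starved over glucose rich WT cells gave 12.89, 2.57, 0.414 and 0.297. Thus snp27 was lower in both starved WT libraries and frp1 in the glucose starved one, whereas ste11 and mei2 were higher in both. Between the mutant labels in nitrogen starved cells ste7 was lower (0.242), itr2 had a ratio of 0.556, snp27 one of 0.941, and frp1 was higher (2.38). These genes were singled out by the sequences marked in the ste11 and mei2 promoters, which were shown because of the ratios of ste11 and mei2. The set was also added after the files were examined, so it was not chosen independently of these data.

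The genes whose levels over the 9 libraries were most like those of each member were taken by Pearson correlation of log2(TPM + 1) among features averaging 10 TPM or more. For ste11 these were itr2 (r = 0.90), mei2 (0.90) and fah2 (0.87), and for mei2 they were pof9, rem1, a meiotic cyclin gene, and SPAC10F6.15 (0.93 each). For pat1 they were tsc2 (0.96), cyp9 (0.93) and not1 (0.93), and for mei3, on its few reads, hem13 (0.94), SPCC663.08c (0.90) and izh2 (0.88). For mei4 they were alo1 (0.99), SPBP23A10.17 (0.98) and dot2 (0.98), and for mmi1 omh2, SPCC613.02 and swd3 (0.99 each). For mei4 and mmi1, 206 and 344 features reached 0.9, against 2 for ste11 and 7 for mei2, so these 2 members followed a pattern that many features shared. The libraries share strains and media, so the correlations are a description over 9 points. Among the members, ste11 and mei2 had r = 0.90, and all other pairs lay between -0.23 and 0.62.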

How the data were processed

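RNA of 9 cultures was sequenced as non-strand-specific, poly(A)-selected libraries. Per the submitters' notes, fastp, HISAT2, SAMtools and featureCounts and the build ASM294v2 were used; their versions and options are not given in the sources used here. The authors deposited TPM for 5323 features, with each feature's length in bases (a unit other than expression). No sample's column was left unused (0 columns). Groups came from the sample titles, the media from the methods of the study.

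Reads were recovered as TPM times length over the step of each library, and all values were whole within 0.001. Values under 3 reads were set to 3 reads in ratios. TPM ratios of 2 libraries were given with exact Clopper-Pearson 95% intervals, and levels with exact Poisson intervals. Calls needed a ratio over 2 or under 0.5 and 1 TPM in the higher library. Alternatives were 3 other scalings, pseudocounts of 1 and 10, a minimum of 10 TPM, and no filter. Members and lists were chosen with earlier results of these data known. The text names the members, up to 4 genes a list (those with the largest and smallest ratios first), 3 genes most like each member, and genes holding both promoter motifs, a set added after the files were examined. Some further genes of the lists were named after their values were seen. Sequences and positions are from RefSeq, ASM294v3: the deposited ends matched for 2724 of 2724 genes coded in 1 segment, and 5086 of 5113 coding genes had a deposited length equal to their coding length. The calculations were tested on simulated data. The software was scipy 1.17.1, numpy 2.4.6 and pandas 2.3.3 under Python 3.11.15, with matplotlib 3.10.9 for figures.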

Additional observations from a re-analysis of the deposited data

Results flagged for a closer look

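Some TPM ratios of the same contrast lay on opposite sides of 1 under different labels or media, with counting intervals that did not overlap. None of these differences was tested, since each group has 1 library. For nitrogen starved over glucose rich cells, ste11 had a ratio of 0.877 under the label tup11/12/php5-d and 3.20 in WT. For glucose starved over glucose rich cells, mei2 had 0.853 under that label and 18.0 in WT, and mei4 had 0.750 and 2.40. Under that label the median log2 ratio of all features was -0.70, and mei2 (-0.23) and mei4 (-0.42) lay above it. For the label tup11/12/php5-d over tup11/12-d, ste11 had 0.310 in nitrogen starved and 1.06 in glucose rich cells, mei2 had 0.424 and 1.04 in the same media, and mmi1 had 0.295 in glucose starved and 1.14 in glucose rich cells. For the label tup11/12-d over WT, pat1 had 2.26 in nitrogen starved and 0.843 in glucose starved cells. The median log2 ratio of all features was -0.33 in the latter comparison, and pat1 (-0.25) lay above it. It was 0.13 between the glucose rich libraries of the mutant labels, where ste11 (0.09) and mei2 (0.06) lay below it. For the ratios set beside a median here, the side of 1 depends on how the libraries are scaled.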

How the results depend on the processing

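Of 360 member ratios under the alternatives, 201 stayed inside the counting interval, none of those past 2-fold turned to the other side of 1, and 37 changed their side of the 2-fold limit. Of 84 counts of members past 2-fold, 66 stayed within 1.5 times. For nitrogen starved over glucose rich cells labelled tup11/12/php5-d, the count of 1 became 0 with size factors, a common upper quartile or a pseudocount of 10. For glucose starved over glucose rich cells of that label, the count of 2 became 1 with a pseudocount of 10 or a minimum of 10 TPM. For glucose starved over glucose rich cells labelled tup11/12-d, the count of 1 became 0 with size factors, the upper quartile, either pseudocount or the 10 TPM minimum, and 2 without the 10 most abundant features. For the label tup11/12/php5-d over tup11/12-d, the count of 4 in glucose starved cells became 1 with size factors or the upper quartile, 2 with a pseudocount of 1 and 0 with one of 10. In glucose rich cells the count of 1 (mei3) became 0 with either pseudocount or the 10 TPM minimum. The calls of ste11 and mei2 in WT starvation, between the label tup11/12-d and WT, and between the 2 mutant labels in nitrogen starved cells were not among those that changed. No paired analysis was possible because each comparison sets 1 library against 1 and the labels carry no replicate numbers, and for the same reason no replicate could be left out. A fit of the strains averaged over the 3 media, with the media as blocks, was not run. With 4 to 37 reads per library, mei3 allows no firm order of its levels.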
